A study of Mus musculus with 4 samples.

Results

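C4b-positive (C4b+) oligodendrocytes were nuclei of myelin-forming cells in which at least 1 transcript of C4b, the mouse gene for complement component 4, was captured. A nucleus counted as an oligodendrocyte when at least 3 of Mog, Mobp, Aspa, St18, Prr5l and Mag had 1 or more unique molecular identifiers (UMIs, each standing for 1 captured transcript) and when Slc17a7, Gad1, Gad2, Pdgfra and Csf1r, genes of neurons, oligodendrocyte progenitors and microglia, had 0. Nuclei with more than 7000 genes or with over 1% of UMIs from mitochondria had been set aside, and of the 30515 that remained 3937 met this rule, 961 of them C4b+ and 2976 with 0 C4b UMIs (C4b-). The tissue was cerebral cortex, taken from GCLC-KO mice in which floxed Gclc was deleted by Cre under the CaMKII promoter. Gclc encodes the catalytic subunit of the enzyme that starts glutathione synthesis, and the promoter is active in excitatory neurons, so that oligodendrocytes carried the floxed alleles outside the targeted cell type. Of the 4 libraries, each from 1 mouse, 2 were from 3-month-old and 2 from 6-month-old GCLC-KO mice, with a batch 1 and a batch 2 library at each age. All groups carried the deletion, none was given a treatment, and no wild-type library was analysed here, so age-related change with and without the deletion cannot be told apart. Nuclei had been sorted as DAPI-positive singlets and were sequenced from the 3′ end of transcripts.

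Oligodendrocytes wrap axons in myelin and supply them with metabolites. C4 is cleaved in the classical and lectin pathways of complement and tags surfaces for removal; in mouse brain it is made by glia, and C4b together with Serpina3n, MHC class I genes and Il33 is widely used as a sign of the reactive state that oligodendrocytes take on in ageing, demyelination and neurodegeneration. The gene lies at chr17:34728380-34743882 on the minus strand of GRCm38, close to its near-identical copy C4a at chr17:34809092-34823464, and reads that fit both can be lost or split. C4a had 0, 1, 2 and 3 UMIs in the oligodendrocytes of the libraries 3-month 1, 3-month 2, 6-month 1 and 6-month 2, the order used for all values by library below.

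Markers that took no part in the rule were those of mature oligodendrocytes. Of 16 such markers, 13 had a higher mean level in C4b+ oligodendrocytes than in any other marked class of nuclei. Sox10, Olig1 and Olig2, transcription factors of the whole lineage, were higher in nuclei carrying oligodendrocyte progenitor (OPC) genes. Mbp, myelin basic protein, was at 4505 ± 376 CPM (UMIs scaled to 1e6 per sum of nuclei; SD, n = 4 libraries) in C4b+ nuclei, at 4676 ± 433 CPM in C4b- nuclei and at 79.1 ± 8.74 CPM in nuclei marked as excitatory neurons. Cldn11, a tight junction protein of myelin, was at 492 ± 80.3, 368 ± 56.0 and 1.21 ± 0.58 CPM in the same classes. The C4b+ class was therefore a subset of mature oligodendrocytes by its other markers. Gclc was at 19.3, 36.6, 30.0 and 29.2 CPM in C4b+ nuclei and at 42.4, 32.7, 34.8 and 36.4 CPM in excitatory neuron-marked nuclei. A count from the 3′ end does not measure an internal deletion, so these values do not test the knockout.

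The 961 nuclei were spread very unevenly over the libraries, with 52, 26, 473 and 410 members. Their UMIs summed to 155474, 54702, 1131487 and 1096008, against 2128895, 1476929, 2084309 and 1503198 in C4b- nuclei, so that values for 3-month-old C4b+ nuclei rested on far fewer counts. A C4b+ nucleus held a median of 2833.5, 1575, 2053 and 2571.5 UMIs and a C4b- nucleus 2820.5, 1698, 1941 and 2131. Depth was thus similar in the classes, with the 6-month 2 library showing the widest gap. Most members sat well inside the rule, since 534 of 961 had all 6 oligodendrocyte genes and 22 had exactly 3. Just outside it were 116 nuclei with 2 of the 6 genes, 12 of them with a C4b UMI, and 1307 nuclei with at least 3 of the genes but also a UMI of a gene required at 0, of which 364 had a C4b UMI. Any pair of libraries shared 12 to 19 cell barcodes.

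Oligodendrocytes in which C4b was detected were a small minority at 3 months and a far larger share at 6 months. A nucleus with 0 C4b UMIs can hold C4b transcripts that were not captured, so these are shares of detection. The share with a C4b UMI was 6.68% (95% Wilson interval 5.13 to 8.66; 52 of 778) and 3.39% (2.32 to 4.92; 26 of 767) in the 3-month-old libraries. In the 6-month-old libraries it was 34.1% (31.6 to 36.6; 473 of 1389) and 40.9% (37.9 to 43.9; 410 of 1003). Both 6-month-old libraries thus lay far above both 3-month-old libraries, with no overlap of the intervals, which cover counting error only. The mean was 5.04% ± 2.33 at 3 months and 37.5% ± 4.83 at 6 months (SD, n = 2 mice each), a difference of 32.4 percentage points, and the exact two-sided permutation p was 0.333, the smallest that 2 mice against 2 can give. Within batch 1 the difference was 27.4 points and within batch 2 it was 37.5 points.

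The difference was also present at equal depth. When every nucleus was reduced at random to 1000 UMIs, leaving out 12 C4b+ and 161 C4b- nuclei that were shallower, the shares were 3.19%, 2.44%, 21.4% and 24.04%. Of the C4b+ nuclei that were kept, 46.2%, 64%, 62.8% and 58.7% still had a C4b UMI. With at least 2 C4b UMIs required, they were 1.67%, 0.522%, 14.4% and 20.9%. Nuclei with 3 or more C4b UMIs numbered 2 and 1 at 3 months and 82 and 97 at 6 months, and the highest count in a single nucleus was 3, 3, 8 and 12. More nuclei therefore crossed the detection limit at 6 months, and those that crossed it reached higher counts.

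**Figure D1:**
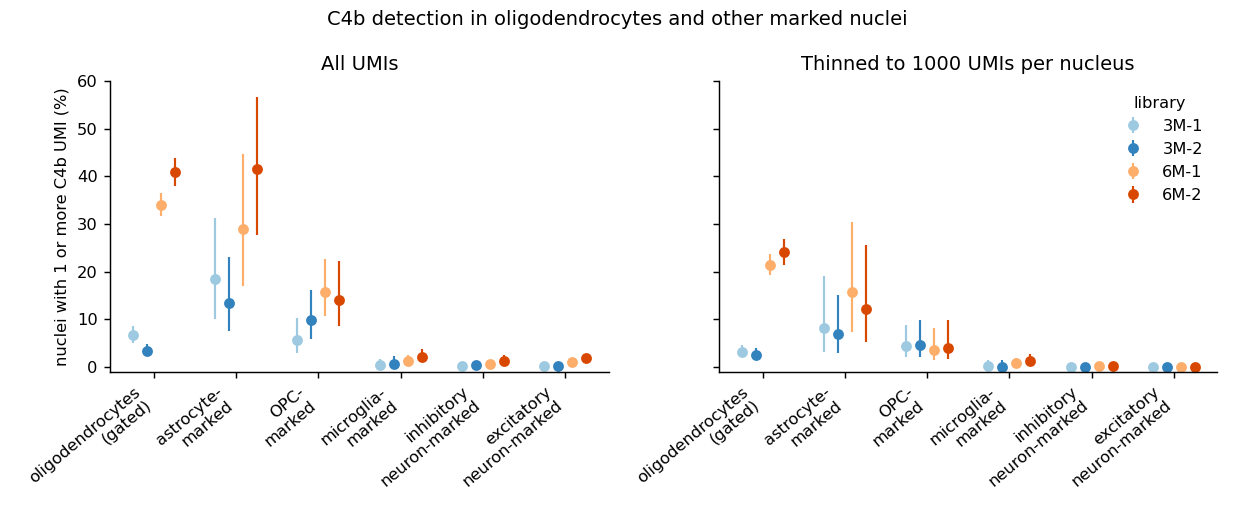
Percent of nuclei with 1 or more C4b UMI, by class of nucleus (x axis) and library (colour; 3M-1 is the 3-month 1 library, and so on), with all UMIs at left and after thinning to 1000 UMIs per nucleus at right; bars are 95% Wilson intervals, which cover counting error only. Gated oligodendrocytes of the 6-month-old libraries, at 34.1% and 40.9%, stand above the 3-month-old ones at 6.68% and 3.39%, and neurons stay near 0.

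Free RNA could give C4b UMIs to any nucleus, so the same share was taken in cells that should lack the gene. In nuclei marked as excitatory neurons, which held a median of 8122 to 11766 UMIs and were therefore deeper than oligodendrocytes, 0.282%, 0.241%, 1.16% and 1.88% had a C4b UMI. Inhibitory neuron-marked nuclei gave 0.297%, 0.437%, 0.569% and 1.24%, and microglia-marked nuclei 0.494%, 0.627%, 1.28% and 2.11%. All oligodendrocyte shares lay above those of neuron-marked and microglia-marked nuclei, including at 3 months. The part of free RNA in the oligodendrocyte shares was not tested. Astrocyte-marked nuclei, of which there were 49, 74, 38 and 41, had C4b in 18.4%, 13.5%, 28.9% and 41.5%. In OPC-marked nuclei the shares were 5.63%, 9.92%, 15.7% and 14.1%, but after thinning they were 4.38%, 4.65%, 3.57% and 4.04%, slightly lower at 6 months with few nuclei behind each value. At 3 months the thinned OPC shares were above those of oligodendrocytes (3.19% and 2.44%). Before thinning this held in the 3-month 2 library (3.39% of oligodendrocytes) but not in 3-month 1 (6.68%).

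The level of C4b over all gated oligodendrocytes, which does not depend on how nuclei were split, followed the shares. It was 29.3 and 20.2 CPM at 3 months and 250.02 and 317 CPM at 6 months, from 67, 31, 804 and 825 UMIs. The 6-month-old values were all above the 3-month-old values. In the fit of edgeR's quasi-likelihood test over 12303 genes, C4b rose by 3.39 on the log2 scale (SE 0.26, Benjamini-Hochberg adjusted p = 0.0130). It was the only gene past the threshold of 0.05 (0.00813% of those tested), while 674 (5.48%) had an unadjusted p under 0.05, DESeq2 called 13 and a fit with the batch number as block called 5. Leaving out each library in turn gave log2 changes of C4b between 3.10 and 3.78, but the number of genes called then went to 126 (without 3-month 1), 1286 (without 3-month 2), 23 (without 6-month 1) and 25 (without 6-month 2).

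Bcl3 and Serpina3n had the same order by age without passing the test. Bcl3, a nuclear IκB-family protein that works with NF-κB p50 and p52, was at 0.876, 1.96, 20.8 and 22.3 CPM over all gated oligodendrocytes (log2 change 3.89, adjusted p = 0.177). Serpina3n, a secreted serine protease inhibitor, was at 1.75, 0.653, 13.1 and 22.7 CPM (log2 change 3.62, adjusted p = 0.349). Summed markers of microglia and astrocytes had the same order, with none called, while the 1 endothelial and the 1 mural marker tested had log2 changes of -1.83 and -1.37. The 13 microglia markers, with Csf1r at 0 by the rule, summed to 113, 172, 190 and 238 CPM over all gated oligodendrocytes (12 of 12 tested above 0, median log2 change 0.75), and the 12 astrocyte markers to 251, 270, 293 and 409 CPM (6 of 8 above 0, median 0.45), beside a median of 0.01 and 51.6% above 0 over all genes. Their part in the values of Bcl3 and Serpina3n was not tested. The ages did not overlap for Bcl3 or Serpina3n, and both genes were also higher in C4b+ than in C4b- nuclei, as given below. Their promoters are printed here because both genes are often described as targets of acute-phase signalling, with the 250 bases before the annotated start from RefSeq on GRCm38.p6. Capitals mark every match to an NF-κB-like pattern (GGG, any 5 bases, then CC) read on both strands, with overlapping matches joined. The Bcl3 stretch is chr7:19822756-19823005 on the minus strand, and the Serpina3n stretch is chr12:104406458-104406707 on the plus strand.
Bcl3: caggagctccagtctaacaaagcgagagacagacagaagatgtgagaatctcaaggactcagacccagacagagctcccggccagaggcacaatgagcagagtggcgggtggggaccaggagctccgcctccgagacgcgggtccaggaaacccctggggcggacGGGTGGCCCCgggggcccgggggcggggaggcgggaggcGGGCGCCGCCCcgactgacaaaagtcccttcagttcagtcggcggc
Serpina3n: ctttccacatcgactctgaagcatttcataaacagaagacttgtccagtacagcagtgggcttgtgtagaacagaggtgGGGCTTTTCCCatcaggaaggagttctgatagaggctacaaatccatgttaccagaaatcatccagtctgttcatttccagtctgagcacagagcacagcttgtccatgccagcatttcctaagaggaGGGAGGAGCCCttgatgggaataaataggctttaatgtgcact
The pattern matched at 3 start positions in the Bcl3 stretch and at 4 in the Serpina3n stretch, where the matches form overlapping pairs on opposite strands. In the Bcl3 stretch GGGTGGCCCC fits the pattern on both strands and was counted once. It was common, present in 45.8% of 32851 promoters of this length. Neither stretch held the STAT-like TTCNNNGAA (7.02% of promoters), the interferon-response-like pattern of GAAA, any 2 bases and GAAA (2.98%) or the C/EBP-like TTGCNNAA (9.56%). A match of letters is a description and not a bound site.

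C4b+ and C4b- oligodendrocytes of the same mouse were then compared, with UMIs summed per library and class and the mouse as a block. Of 10425 genes tested, 56 passed the threshold (0.537%), 18 of them higher (0.173%) and 38 lower (0.365%) in C4b+ nuclei, and 552 (5.29%) had an unadjusted p under 0.05. Higher genes changed by 0.44 to 2.19 on the log2 scale with a median of 0.75, and lower genes by -3.53 to -0.59 with a median of -0.92. The 12 genes of the rule were left out of this test. Of the 56 genes, 39 had the same direction in all 4 libraries. Against C4b- nuclei chosen to match the depth of the C4b+ nuclei, 54 could be tested, all with the same sign, and 25 passed. When the ages were taken apart, 2 genes passed at 3 months, where 78 C4b+ nuclei were available, and 109 at 6 months. The calls therefore rest mainly on the 6-month-old libraries, and after thinning to 1000 UMIs, which also reassigns nuclei between classes, 1 gene passed.

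Genes higher in C4b+ nuclei in every library and also against depth-matched nuclei were Rhoj, Parp3, Neat1, Dgki, Adamtsl1 and Trf. Trf, which encodes the iron carrier transferrin and is made in the brain mainly by oligodendrocytes, stood at 1280, 1865, 1370 and 1431 CPM in C4b+ nuclei against 958, 1218, 967 and 1075 CPM in C4b- nuclei (log2 fold change 0.44, adjusted p = 0.00760). It was higher in 4 of 4 libraries. Neat1, the long noncoding RNA that builds nuclear paraspeckles, stood at 2959, 2468, 3457 and 3064 CPM against 1939, 1722, 2549 and 2181 CPM (log2 fold change 0.47, adjusted p = 0.00159). Again the order held in each library, although the 6-month-old libraries had more Neat1 in both classes.

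Rhoj, a small GTPase of the Cdc42 group, was at 277, 146, 345 and 334 CPM against 206, 88.7, 189 and 211 CPM (log2 fold change 0.69, adjusted p = 7.30e-04). Dgki, diacylglycerol kinase iota, was at 1055, 1097, 989 and 1262 CPM against 755, 612, 783 and 812 CPM (log2 fold change 0.51, adjusted p = 0.00241). The lowest C4b+ value of Dgki was above the highest C4b- value. Adamtsl1, a secreted ADAMTS-like matrix protein, was at 534, 457, 597 and 571 CPM against 303, 285, 468 and 396 CPM (log2 fold change 0.53, adjusted p = 0.00679). Parp3, a poly(ADP-ribose) polymerase family enzyme active at DNA breaks, was low in level but had the largest difference of these 6 genes, at 38.6, 18.3, 25.6 and 27.4 CPM against 2.35, 6.09, 5.76 and 10.6 CPM (log2 fold change 2.02, adjusted p = 0.00107). Its C4b+ and C4b- values did not overlap.

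**Figure D2:**
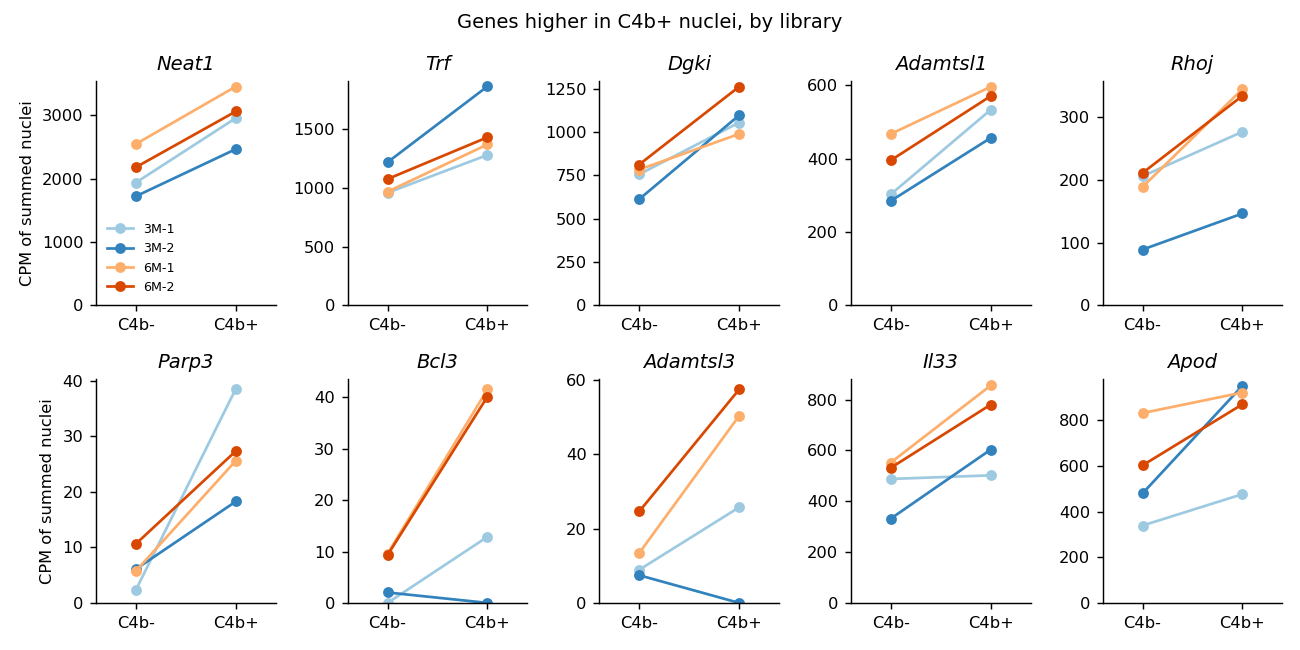
CPM of the summed C4b- and C4b+ nuclei for 10 genes that passed the test as higher in C4b+ nuclei, with a line for each library. Lines of Neat1, Trf, Dgki, Adamtsl1, Rhoj, Parp3, Il33 and Apod rise in all 4 libraries, and those of Bcl3 and Adamtsl3 fall in the 3-month 2 library, where no UMI of either gene was found in the 26 C4b+ nuclei.

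Bcl3 had the largest fold change of the higher genes. It was at 12.9, 0, 41.5 and 40.1 CPM in C4b+ nuclei (2, 0, 47 and 44 UMIs) and at 0, 2.03, 9.60 and 9.31 CPM in C4b- nuclei (0, 3, 20 and 14 UMIs), with a log2 fold change of 2.19 and an adjusted p of 6.68e-05. Nearly all its counts were from 6 months, where it was higher in both mice. The gene overlaps Gm16175 and Gm16174 on the other strand. Adamtsl3, a relative of Adamtsl1, had 4, 0, 57 and 63 UMIs in C4b+ and 19, 11, 28 and 37 in C4b- nuclei (log2 fold change 1.49, adjusted p = 2.58e-04). Nxph1, a neurexophilin that also marks inhibitory neurons, had 0, 0, 195 and 75 UMIs against 21, 21, 99 and 41 (log2 fold change 1.502, adjusted p = 2.62e-06). In the 6-month 1 library 10 nuclei held 171 of its 195 UMIs, and its log2 fold change was 0.30 and no longer past the threshold when predicted doublets were left out. The other higher genes were 7630403G23Rik, Aldh1l2, Cfap69, Pros1, Tubb3, Fmn1, Gpc6, Il33 and Apod.

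Among genes known from disease-associated oligodendrocytes, Il33 and Apod rose and the remainder did not pass. Of the 21 listed genes, 13 could be tested, 2 passed as higher and none as lower (0.173% and 0.365% over all genes), with a median log2 fold change of 0.39 beside -0.02 over all genes. The summed level of the list was 2007, 2121, 2972 and 2811 CPM in C4b+ nuclei and 1708, 1524, 2472 and 2152 CPM in C4b- nuclei, higher in 4 of 4 libraries. Without the called genes Il33 and Apod it was 1029, 567, 1196 and 1161 CPM against 882, 713, 1089 and 1018 CPM, and the 3-month 2 library turned. Il33, a nuclear alarmin cytokine, was at 502, 603, 856 and 780 CPM against 488, 332, 552 and 532 CPM (log2 fold change 0.49, adjusted p = 0.0130). Apod, a lipid-binding apolipoprotein of myelinating cells, was at 476, 951, 921 and 870 CPM against 339, 479, 831 and 602 CPM (log2 fold change 0.44, adjusted p = 0.0341). Both were higher in each library, though neither passed against depth-matched nuclei (adjusted p = 0.0920 and 0.134).

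The other tested members of that list gave values without a call. The tetraspanin Cd9 had a log2 fold change of 0.50 (adjusted p = 0.115) and the MHC class I heavy chain H2-D1 of 0.78 (adjusted p = 0.622). Values were 0.49 for the protease Klk6, 0.38 for the tetraspanin Cd63, 0.40 for H2-K1, 0.39 for the cell cycle inhibitor Cdkn1a and 0.34 for Anxa5. They were 0.18 for B2m, the light chain of MHC class I, 0.11 for the small heat shock protein Cryab, -0.07 for the kinase Sgk1 and -0.10 for Il12rb1. Of all 13 tested members, 11 were above 0 in the fit, beside 46.3% of all genes. Mean CPM over the libraries went against the fitted sign for some of them. In C4b+ against C4b- nuclei it was 7.85 against 8.16 for Klk6 and 12.4 against 13.0 for H2-K1. For B2m it was 5.63 against 5.95, for Cryab 179 against 182 and for Il12rb1 10.2 against 9.61. Leaving out each library in turn gave ranges of 0.03 to 0.55 for H2-K1, 0.19 to 0.61 for Anxa5, 0.19 to 0.46 for Cdkn1a and 0.23 to 0.46 for Cd63. The ranges were -0.12 to -0.01 for Sgk1, -0.04 to 0.22 for Cryab and -0.41 to 0.26 for Il12rb1, so that the signs of Cryab and Il12rb1 turned. Socs3, Anxa2, S100a6, Nupr1, Steap3, Lgals1 and Vim were below the filter on low counts.

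Serpina3n, the usual companion of C4b, was also below that filter. Its UMIs numbered 1, 0, 29 and 40 in C4b+ nuclei and 3, 1, 13 and 19 in C4b- nuclei. At 6 months that was 25.6 and 36.5 CPM against 6.24 and 12.6 CPM, and 5.07% and 8.54% of C4b+ nuclei held a UMI against 1.201% and 3.04% of C4b- nuclei. The class with C4b was higher in both 6-month-old mice. Without the filter the log2 fold change was 1.74 (SE 0.36, adjusted p = 0.00158), and in the 6-month-old libraries alone it was 1.75 (adjusted p = 8.45e-05).

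**Figure D3:**
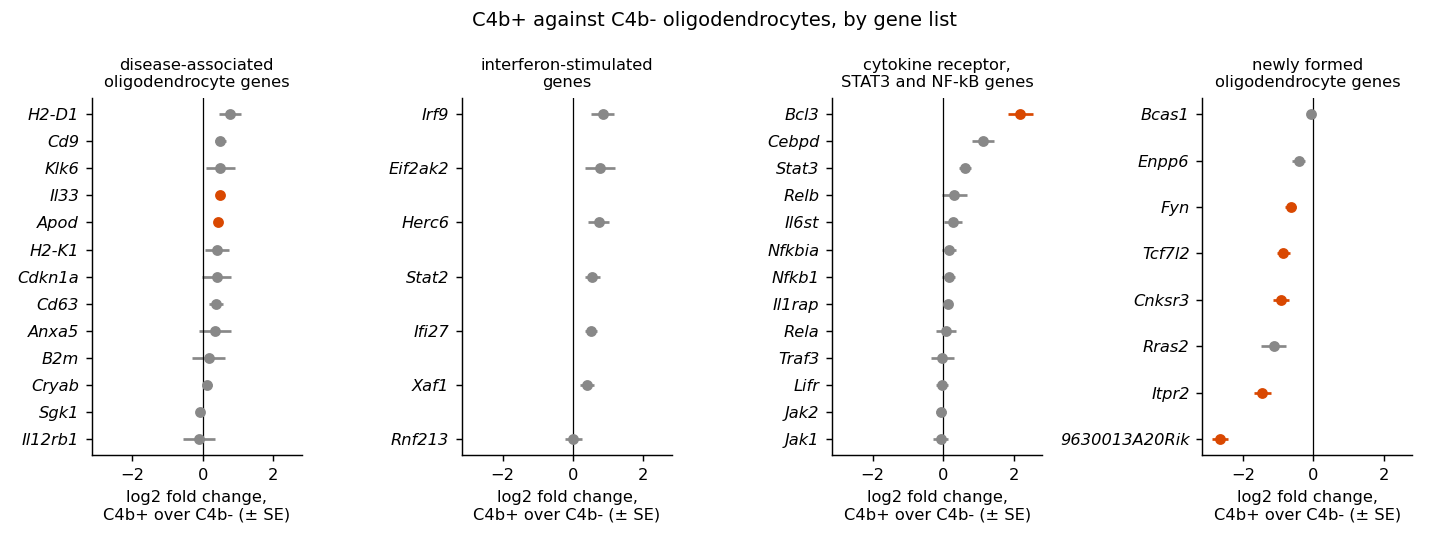
Log2 fold change of C4b+ over C4b- oligodendrocytes (x axis, points with SE bars) for tested members of 4 gene lists, in colour where the adjusted p was under 0.05. Il33 and Apod passed as higher, the interferon-stimulated genes plotted lie above 0 without a call, Bcl3 passed among cytokine and NF-κB genes, and 5 of 8 genes of newly formed oligodendrocytes passed as lower.

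The interferon-stimulated genes that could be tested lay above 0 without a call. Of 33 listed genes 8 could be tested, none passed, all 8 had a positive log2 fold change with a median of 0.60, and 6 had an unadjusted p under 0.05. Over all genes, 0.537% passed, 46.3% were above 0, the median was -0.02 and 5.29% had such a p. Of members that had a value only without the filter on low counts, Rsad2 (-0.97), Iigp1 (-1.93) and Sp100 (-0.38) were below 0. The others were above 0, and none passed. The list summed to 283, 494, 514 and 329 CPM in C4b+ nuclei and to 187, 257, 312 and 254 CPM in C4b- nuclei. It was higher in 4 of 4 libraries. Stat2 and Irf9, which act together in the response to type I interferon, had log2 fold changes of 0.55 and 0.84 (adjusted p = 0.609 for each), and the interferon-induced Ifi27 had 0.51 (adjusted p = 0.355).

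Of 25 genes for cytokine receptors, STAT3 and NF-κB signalling, 13 could be tested and Bcl3 alone passed as higher (0.173% over all genes), with a median of 0.15 beside -0.02 over all genes. Stat3, which carries signals of the interleukin-6 family, was at 83.6, 54.8, 84.8 and 129 CPM against 67.6, 39.9, 56.1 and 75.8 CPM (log2 fold change 0.62, adjusted p = 0.0791). Cebpd, an acute-phase transcription factor, had a log2 fold change of 1.14 (adjusted p = 0.0839). These uncalled genes were picked after their values had been seen. None of 6 tested MHC class I presentation genes passed (0.537% over all genes), with 5 above 0 (46.3% over all genes) and a median of 0.36. Of these 6, 2 had an unadjusted p under 0.05 (5.29% over all genes), 1 of them higher. None of 11 tested complement genes other than C4b passed (0.537% over all genes), a share at which lists this short would seldom hold a call. Of these 11, 5 were above 0 (46.3% over all genes), and the complement median was -0.04 beside -0.02 over all genes.

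Myelin genes showed little difference. All 29 listed myelin and mature oligodendrocyte genes could be tested, Trf alone passed as higher (0.173% over all genes), and the median was 0.07 beside -0.02 over all genes. Of 14 iron-handling genes 11 were tested, again with Trf alone passing as higher (0.173% over all genes), and the summed level in C4b+ nuclei was 1743, 2779, 2274 and 2333 CPM against 1418, 1990, 1760 and 1876 CPM. Trf made up most of it, and without Trf the sums were 463, 914, 904 and 902 CPM against 460, 772, 793 and 801 CPM, a difference near 0 in the 3-month 1 library. None of 21 tested cholesterol synthesis and transport genes and none of 21 tested glutathione and antioxidant genes passed, with 10 and 13 above 0. The tested genes of the integrated stress response, p53, heat shock and immediate early lists gave no call either. There 1 of 5, 6 of 11, 10 of 11 and 4 of 7 were above 0, with medians of -0.20, 0.03, 0.13 and 0.06. Over all genes 0.537% passed and 46.3% were above 0, so the lack of calls says little about lists this short.

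Several levels also followed the number of C4b UMIs within each 6-month-old library, given here as a description without a test. With 0, 1, 2 and 3 or more C4b UMIs per nucleus, Serpina3n was at 6.24, 18.1, 33.1 and 36.2 CPM in the 6-month 1 library and at 12.6, 13.9997, 33.3 and 77.7 CPM in the 6-month 2 library. Trf went from 967 through 1225 and 1316 to 1843 CPM and from 1075 through 1192 and 1559 to 1704 CPM. Dgki went from 783 through 834 and 1051 to 1331 CPM and from 812 through 1040 and 1276 to 1623 CPM. All 3 genes were highest in nuclei with the most C4b in both mice, and each step was upward. They were picked for that pattern. Of the 6 higher genes named above, 3 went up at every step in both mice (Adamtsl1, Dgki and Trf), and of the 21 disease-associated genes Serpina3n alone did. The step from 0 C4b UMIs upward was part of how the higher genes had been chosen. At 3 months, where 2 and 1 nuclei held 3 or more C4b UMIs, Trf went from 958 through 1317 and 1191 to 1110 CPM and from 1218 through 1928 and 1786 to 1187 CPM. Il33 was at 552, 827, 737 and 1096 CPM and at 532, 688, 776 and 940 CPM, with a single step down in the 6-month 1 library. Median depth moved along with the C4b count, from 1941 through 1878 and 2196.5 to 2411 UMIs and from 2131 through 2336 and 2571 to 2858 UMIs, and its part in these values was not tested.

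**Figure D4:**
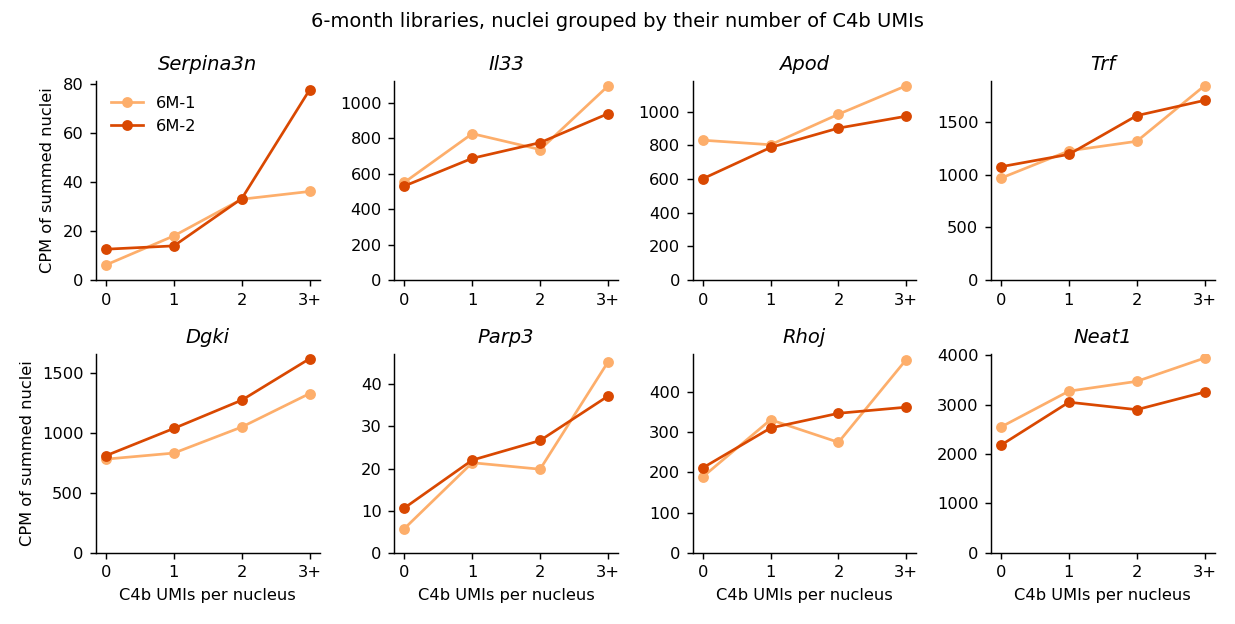
CPM of 8 genes in the 6-month-old libraries, with nuclei grouped by their number of C4b UMIs (x axis) and their UMIs summed before scaling; each line is a library. Serpina3n, Trf and Dgki rise at every step in both libraries.

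The leading lower genes in C4b+ nuclei took many of their C4b- counts from few nuclei. Of the 12 lower genes that are named here, 7 had over 50% of their C4b- UMIs in the 10 richest C4b- nuclei of each library, and 5 had 38.9% to 49.4%. In C4b+ nuclei the same shares were 33.5% (9530059O14Rik) to 77.1% (9630013A20Rik), and 100% of the 6 UMIs of Gm13187. Low totals also raise such a share, as the 77.1% stood for 27 of 35 UMIs with at most 2 in a nucleus. The shares cannot be compared directly, since 10 nuclei are a larger part of the smaller class. They do not say whether concentration in few nuclei differed between the classes. The leading gene was 9630013A20Rik, a long noncoding RNA of newly formed oligodendrocytes at chr14:84458639-84476424 on the minus strand, opposite Pcdh17. It was at 12.9, 18.3, 15.9 and 12.8 CPM in C4b+ nuclei and at 171, 198, 105 and 54.6 CPM in C4b- nuclei (log2 fold change -2.65, adjusted p = 2.06e-13). The share of nuclei with a UMI was close in the classes, with 31 of 961 C4b+ nuclei (3.23%) and 132 of 2976 C4b- nuclei (4.44%). What differed was the count per nucleus. No C4b+ nucleus held more than 2 UMIs, while single C4b- nuclei held up to 135, 90, 52 and 21. The 10 C4b- nuclei of each library with the most UMIs together held 860 of 956 (90.0%). Nuclei rich in this transcript were thus found in the C4b- class alone. At 3 months, where the highest counts lay, only 52 of 778 and 26 of 767 oligodendrocytes were C4b+. Their absence from the C4b+ class there says little.

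Tnr, tenascin-R, a matrix protein of the lineage before full maturity, was at 0, 73.1, 61.9 and 24.6 CPM against 76.6, 133, 148 and 189 CPM (log2 fold change -1.98, adjusted p = 2.22e-10). Its 10 richest C4b- nuclei per library held 776 of 953 UMIs (81.4%), and 1 C4b+ nucleus held 12. Itpr2, an inositol trisphosphate receptor long used as a marker of newly formed oligodendrocytes, was at 12.9, 18.3, 22.98 and 20.1 CPM against 46.5, 57.6, 57.6 and 57.9 CPM (log2 fold change -1.45, adjusted p = 6.68e-05), and for Itpr2 the richest nuclei held 63.4%. C4b+ and C4b- values of each of these genes did not overlap between the classes. The scaffold gene Frmd4a fell by 1.09 on the log2 scale with 63.9% of its C4b- UMIs in the richest nuclei and up to 53 UMIs in a C4b+ nucleus, and Gm13187, which lies inside Frmd4a on the other strand, fell by 3.53 with 209 of its 210 C4b- UMIs in the richest nuclei. The other lower genes that met the naming rule were 9530059O14Rik (-0.92), Sgcz (-0.79), Pik3r3 (-0.96), Nckap5 (-0.70), Sema5a (-1.19), Ust (-0.81) and Tmem163 (-0.73).

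Of 12 listed genes of newly formed oligodendrocytes 8 could be tested, and 5 passed as lower (0.365% over all genes), namely 9630013A20Rik, Itpr2, Tcf7l2, Fyn and Cnksr3, with a median of -0.88 beside -0.02 over all genes. Fyn and Cnksr3 did not pass against depth-matched nuclei (adjusted p = 0.0799 and 0.0728). The summed level was lower in C4b+ nuclei in 4 of 4 libraries. Tcf7l2, a transcription factor needed for the final step of maturation, had a log2 fold change of -0.85 (adjusted p = 0.00813), but in the 3-month 2 library it was higher in C4b+ nuclei (146 against 92.8 CPM), at 3 months alone its log2 fold change was 0.037, and without the 6-month 1 library it was -0.56. Bcas1 and Enpp6, other genes of that stage, had -0.07 and -0.42 without a call.

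Every nucleus with a 9630013A20Rik UMI was also left out, a step added after these values had been seen. Since that gene was itself the leading lower gene, genes that share its nuclei move towards 0 by construction, and the values are a description only. Of the 18 higher genes, all kept their direction and 10 still passed, with a median of 0.70 in place of 0.75. Of the 38 lower genes 33 could be tested, 29 kept their direction, and 2, Sgcz (-0.65) and 1700063D05Rik (-1.26), still passed. Adcy10 (-0.71) and Abtb2 (-0.64) also stayed about as low, without passing. The median of these 33 moved from -0.85 to -0.41. Frmd4a (0.10), Pik3r3 (0.10), Cnksr3 (0.05) and Tcf7l2 (0.08) changed sign without passing. The median of the newly formed oligodendrocyte list was then -0.12. Of the 6 higher genes named first, Rhoj, Parp3 and Dgki still passed, while Adamtsl1 (adjusted p = 0.0517), Trf (0.0768) and Neat1 (0.124) did not.

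**Figure D5:**
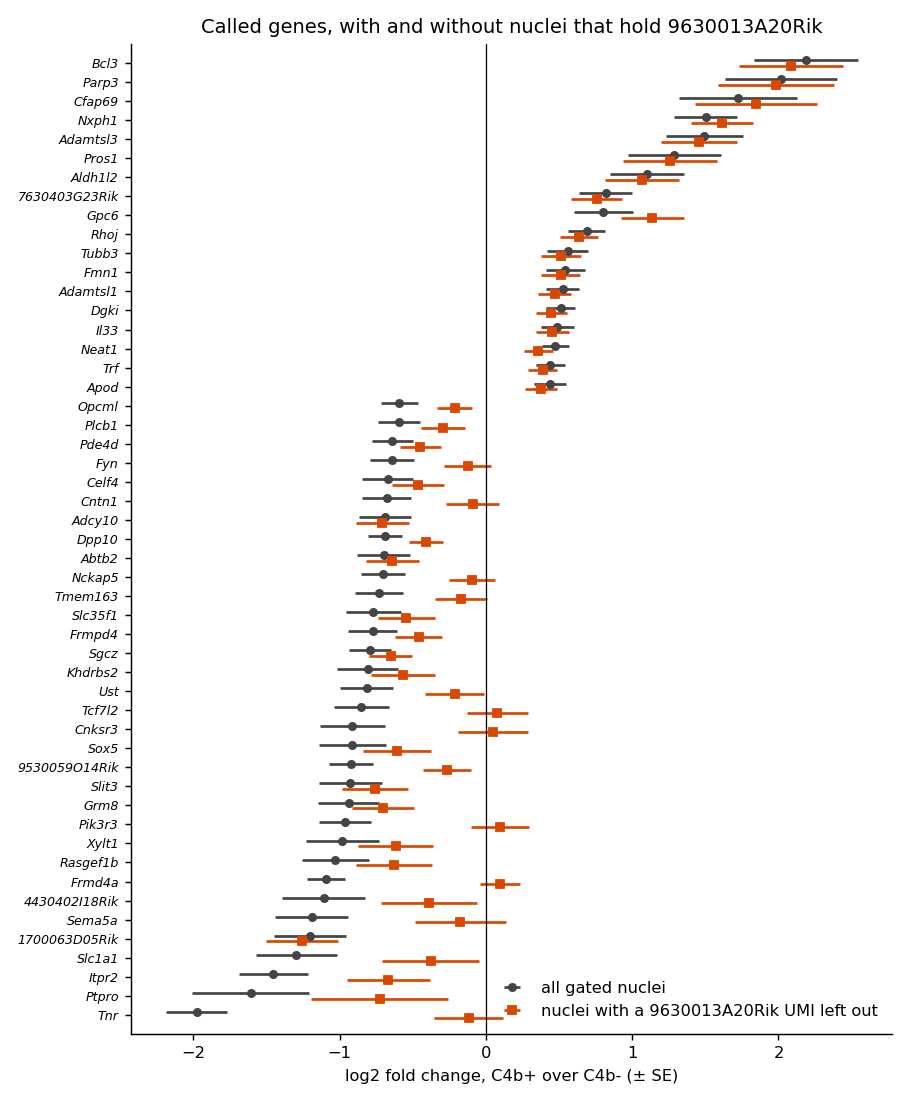
Log2 fold change of C4b+ over C4b- oligodendrocytes (points with SE bars) for called genes that could be tested both with all gated nuclei (circles) and with nuclei holding a 9630013A20Rik UMI left out (squares). Squares of Frmd4a and Tnr move from -1.09 and -1.98 to 0.10 and -0.12, and that of Gpc6, a higher gene, from 0.80 to 1.14.

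Transcripts of other cell types were measured in the same sums. Astrocyte markers summed to 199, 238, 271 and 339 CPM in C4b+ and to 255, 271, 305 and 461 CPM in C4b- nuclei, lower in C4b+ nuclei in 4 of 4 libraries, with Slc1a3 or Slc1a2 the most abundant. Microglia markers summed to 116, 110, 214 and 182 CPM against 112, 174, 177 and 278 CPM, without an order between the classes. Excitatory neuron markers, led mostly by Syt1, summed to 470, 1828, 1143 and 957 CPM against 586, 1171, 1113 and 1335 CPM, again without an order. In the fit none of these 9 markers passed (0.537% over all genes), and 8 were below 0, with a median of -0.11 beside -0.02 over all genes. Inhibitory neuron markers, led by Erbb4, summed to 1203, 951, 1803 and 1616 CPM against 1565, 1362, 1557 and 1523 CPM, lower in C4b+ nuclei at 3 months and higher at 6 months, and of 3 tested Nxph1 passed as higher (0.173% over all genes). Summed OPC markers were lower in C4b+ nuclei in 4 of 4 libraries (161, 219, 223 and 134 CPM against 182, 246, 280 and 331 CPM). Tnr was their most abundant gene in C4b- nuclei and the only one of 5 tested to pass, as lower (0.365% over all genes). The remaining tested markers went the other way, with 4 of 5 above 0 and a median of 0.18. Over all genes 46.3% were above 0 and the median was -0.02, so the lower sums do not stand for the list as a whole. Endothelial markers had 0, 0, 8 and 5 UMIs in C4b+ nuclei, and no marker of endothelial, mural or fibroblast cells could be tested. In an alternative, nuclei with a UMI of Aqp4, Gja1, Slc1a3, Flt1, Cldn5, Pdgfrb, Rgs5, Dcn or Col1a2 were left out. These are genes of astrocytes, vessels and fibroblasts, and no neuron, microglia or OPC marker was among them. There 57 genes passed. All 18 named genes kept their direction, which the naming rule had already asked for in each library.

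Age comparisons within each class gave few calls. In C4b+ nuclei none of 8355 genes differed between 6 and 3 months by edgeR, and none by DESeq2, with 507 at an unadjusted p under 0.05 (6.07%) and 6 called in a fit with the batch number as block. Bcl3 was at 12.9 and 0 against 41.5 and 40.1 CPM, Serpina3n at 6.43 and 0 against 25.6 and 36.5 CPM, and H2-D1 at 6.43 and 0 against 34.5 and 29.2 CPM. All 3 were higher in both 6-month-old mice, and all had an adjusted p of 0.781. Summed microglia markers in these nuclei had the same order, at 116 and 110 against 214 and 182 CPM. So did astrocyte markers, at 199 and 238 against 271 and 339 CPM. In the fit 2 of 4 tested microglia markers and 3 of 4 astrocyte markers were above 0 (54.0% over all genes), and their part was not tested. Mt1, a metallothionein that binds zinc and copper, was at 38.6 and 54.8 against 152 and 126 CPM (log2 change 1.65, adjusted p = 0.663). Leaving out the 3-month 2 library, which had the fewest C4b+ nuclei, gave 179 calls in C4b+ nuclei, and leaving out the 3-month 1 library gave 39.

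Several of these genes had the same order by age in C4b- nuclei. In C4b- nuclei Serpina3n was at 1.41 and 0.677 against 6.24 and 12.6 CPM, Bcl3 at 0 and 2.03 against 9.60 and 9.31 CPM, H2-D1 at 1.41 and 7.45 against 19.7 and 17.3 CPM, and Mt1 at 43.2 and 86.0 against 127 and 119 CPM. The 6-month-old values were higher for all 4 genes there as well. Microglia markers were above 0 in 11 of 11 tested genes (median log2 change 0.89) and astrocyte markers in 7 of 8 (median 0.64) in the same fit, beside 51.6% of all genes, and their part was not tested. None of 11561 genes passed in C4b- nuclei (595, or 5.15%, at an unadjusted p under 0.05, and 1 by DESeq2), but 1105 did without the 3-month 2 library, 141 without 3-month 1 and 16 without 6-month 2. Of 11386 genes, none had a difference between C4b+ and C4b- nuclei that depended on age (579, or 5.09%, at an unadjusted p under 0.05, and 0 by DESeq2), a test limited by the 78 C4b+ nuclei at 3 months.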

How the data were processed

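Single-nucleus libraries (10x 3′ v3.1) of 4 GCLC-KO cortices were analysed. Raw counts of UMIs per gene and nucleus were deposited by the authors as filtered matrices of Cell Ranger 7.0.0, aligned to mm10 per the labels. Nuclei were filtered and classed by the stated rule, which, like the gene lists, was chosen with earlier results of these data known. UMIs were summed per library and class and tested with edgeR 4.0.16 in R 4.3.3 (TMM, filterByExpr, quasi-likelihood, Benjamini-Hochberg at 0.05), with the library as block between classes. DESeq2 1.42.0 was an alternative. Scripts were tested on simulated data. Genes were named when they passed in the main and the depth-matched fit and had the same direction of CPM in 4 of 4 libraries (up to 12 each way); list members were named when called, or as the most abundant uncalled. Other named genes were chosen after their values were seen. Scrublet (scanpy 1.11.5, expected rate 6%) marked 25 C4b+ and 77 C4b- nuclei as doublets, which were kept in the main fits and left out in an alternative. Nuclei of the same mouse are not replicates, so libraries were (n = 2 per age).

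Depth per library was 63194878, 62574289, 65894316 and 59262228 UMIs in kept nuclei, and intervals cover counting error only. Same-numbered libraries share a batch number in the labels. After subtracting age means, their differences correlated at -0.0918 over 8362 genes in C4b+ and at 0.0264 over 11567 genes in C4b- nuclei. Gene positions are from GENCODE M21 (GRCm38), which held 32158 of 32285 identifiers, and promoters from RefSeq, which held Bcl3 and Serpina3n. Results for some list members are not reported here.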

Additional observations from a re-analysis of the deposited data

How the results depend on the processing

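Limits were depth and replication. C4b+ nuclei at 3 months numbered 52 and 26, 2 mice per age cannot reach an exact p under 0.333, and 3′ counts do not separate C4b from C4a where reads fit both.

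The share difference by age (32.4 points) kept its direction under every alternative tried, from 16.6 points with 2 or more C4b UMIs and 19.9 points after thinning to 33.0 points with at least 4 oligodendrocyte genes, and from 29.0 to 35.8 points without each library in turn. The C4b change stayed past the threshold in all its fits, but the number of genes called by age over all gated oligodendrocytes was 1 in the stated fit, 13 with DESeq2, 139 without the filter, 5 with the batch number as replicate block, 126, 1286, 23 and 25 without 3-month 1, 3-month 2, 6-month 1 and 6-month 2, and 2 without doublets.

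Genes called between C4b+ and C4b- nuclei (56) numbered 11 with DESeq2, 86 with doublets left out, 15 with at least 4 oligodendrocyte genes, 29 against depth-matched nuclei, 1 after thinning, 19 with 2 or more C4b UMIs, 2 with no mouse block and 27 (without 6-month 2) to 68 (without 6-month 1) without each library in turn. Alternatives chosen after seeing the data gave 2 at 3 months only, 109 at 6 months only and 13 with 9630013A20Rik nuclei left out. In that last fit Frmd4a (0.10), Pik3r3 (0.10), Cnksr3 (0.049) and Tcf7l2 (0.079) reversed, as did Tcf7l2 at 3 months only (0.037). All 18 named genes kept their direction under the other alternatives in which they were tested. The naming rule had already asked for that direction in 4 of 4 libraries. Fits on fewer libraries, at 1 age or with no mouse block therefore do not test it anew. Of these 18, 10 passed with DESeq2, 7 with 2 or more C4b UMIs and 2 with no mouse block. Of 17 tested, 7 passed with at least 4 oligodendrocyte genes and 1 after thinning. All pass against depth-matched nuclei because the naming rule asks for it.

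Age calls in C4b+ nuclei (0) numbered 7 with 2 or more C4b UMIs, 6 with the batch number as replicate block and 0 to 179 without each library. In C4b- nuclei (0) they numbered 1 with DESeq2, 103 without the filter, 2 after thinning, 0 with the replicate block and 0 to 1105 without each library, with 141 without 3-month 1 and 16 without 6-month 2. Calls that depended on age (0) numbered 1 with nuclei holding the listed astrocyte, vessel or fibroblast genes left out and 23 after thinning.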

Other observations

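Astrocyte-marked nuclei also carried C4b, at 64.4, 82.6, 184 and 190 CPM, but after thinning the shares of nuclei with a UMI were 8.16%, 6.85%, 15.8% and 12.2% of few nuclei. The share of gated oligodendrocytes among all kept nuclei was 11.4%, 8.77%, 17.1% and 14.6%.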
